A study of Mus musculus with 2 samples.

Results

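The 77 genes described here encode Mediator, TFIID and the general transcription factors. They are the protein-coding genes of mm9 (GENCODE vM1) whose symbol is Med or Taf followed by a number and an optional letter, starts with Gtf2 or Gtf3, or is Tbp or Tbpl1, out of 22265 protein-coding genes on chromosomes 1 to 19, X and Y. The rule reads gene symbols only. The data are ChIP-seq libraries of E14 mouse ES cells, for which the labels give the background strain C57BL/6, cultured with serum and LIF. The Zfp322a ChIP library was made with anti-ZNF322 antibody and the control library with anti-Rabbit IgG antibody. No treatment is given for either, and each antibody has 1 library, so no value here has a replicate check. The comparison asks whether chromatin at the starts of these genes was recovered more often with the Zfp322a antibody than with IgG. ChIP reads do not measure expression, so the identity of the cells was not checked against marker genes.

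Mediator is a large complex that carries signals from DNA-bound activators to RNA polymerase II. Its head and middle modules contact the polymerase, Med14 joins the modules as a scaffold, the tail contacts activators, and the kinase module binds reversibly. TFIID, made of the TATA-binding protein Tbp and its associated factors (the TAFs), recognises the core promoter, and TFIIA, TFIIB, TFIIE, TFIIF and TFIIH complete the preinitiation complex around the polymerase. SL1 is the TBP-TAF complex of RNA polymerase I, and TFIIIA and TFIIIC act at genes of RNA polymerase III. In ES cells, Mediator and several TAFs are known for their part in keeping pluripotency genes active.

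The sequences below show the DNA under putative sites at 2 TFIID and 2 Mediator genes that lay largely outside UTRs, and a motif shared by 5 of the promoters. Each is printed 5′ to 3′ on the strand of its gene, from mm9, in lower case with motif matches in capitals, and UTR bases were left out of the site stretches. At Taf5 (chr19:47142767-47143038, plus strand), the stretch with no IgG read over it, the capitals mark a GC box (GGGCGGG or its complement) and matches to study motif 1 (a degenerate motif drawn by the study). At Med29 (chr7:29177803-29177969, minus strand) they mark a pair of CCAAT boxes read on the other strand. At Taf1 (chrX:98727934-98728072, plus strand) they mark a GC box and a pair of CCAAT boxes, and at Med12 (chrX:98469280-98469321, plus strand) the stretch held none of the motifs searched. The sites at Taf1, Med12 and Med29 were lost under some other settings, and that at Taf5 lay outside a shorter window, as given below.
Taf5: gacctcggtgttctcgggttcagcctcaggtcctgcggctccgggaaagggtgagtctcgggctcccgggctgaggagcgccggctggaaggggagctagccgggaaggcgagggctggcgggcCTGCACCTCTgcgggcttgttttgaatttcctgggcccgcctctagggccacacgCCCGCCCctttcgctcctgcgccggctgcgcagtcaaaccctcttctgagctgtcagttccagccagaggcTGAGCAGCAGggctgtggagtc
Med29: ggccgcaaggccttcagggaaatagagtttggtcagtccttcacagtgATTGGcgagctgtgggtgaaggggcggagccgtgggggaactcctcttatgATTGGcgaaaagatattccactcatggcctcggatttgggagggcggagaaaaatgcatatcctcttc
Taf1: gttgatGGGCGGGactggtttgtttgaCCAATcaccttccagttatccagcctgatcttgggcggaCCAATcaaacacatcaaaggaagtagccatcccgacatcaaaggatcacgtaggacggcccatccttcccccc
Med12: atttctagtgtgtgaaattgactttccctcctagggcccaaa

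Study motif 3 is another motif drawn by the study, and its letters were read here from that drawing. The YY1 core ATGGCGG lies inside 4 of the 5 matches shown, the match at Gtf3c6 being the exception. The paper instead describes its motif 3 as highly similar to the motif bound by Oct4 and Sox2. That likeness was not tested here, and the letters searched may differ from the motif that the paper describes. Shares given for study motif 3 therefore refer to the letters searched only. The motif was found in 5 of the 77 promoters, shown with its match in capitals: Gtf3c6 (chr10:39977526-39977554, minus strand, match on the other strand), Med1 (chr11:98054564-98054592, minus strand), Med12 (chrX:98469588-98469616, plus strand), Taf4a (chr2:179711335-179711363, minus strand) and Taf5 (chr19:47142243-47142271, plus strand).
Gtf3c6: aagcctggcGTCGCCATCTTgctttctgg
Med1: ccgttggggAAGATGGCGGCggccgcgag
Med12: gggctgggcAAGATGGCGGCtttcgggat
Taf4a: cgaggaggaAAGATGGCGGCgggctcgga
Taf5: ctcagccgcAAGATGGCGGCgctggcgga

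Mapping quality is a score that is low for reads with more than 1 possible origin. Reads scoring 25 or more numbered 4151151 of 5187475 (80.0%) in the Zfp322a library and 3877802 of 4843481 (80.1%) in the IgG library. Per gene, reads were counted whose 5′ end lay within 1000 bp of the transcription start site (TSS). The fold per read is the Zfp322a count over the IgG count after each was divided by its library total, with an exact 95% interval. The intervals cover counting error only, since each antibody has 1 library and variation between libraries cannot be measured. A putative site is a stretch where reads extended to 300 bp reached a height of at least 9 in the Zfp322a library and at least 3 times the height in IgG. Deposited regions are those in the authors' files from their own peak detection, and are far fewer than the binding sites that the paper reports. Promoters are called CpG-rich where, from -250 to +50 bp of the TSS, the GC content was at least 50% and the ratio of observed to chance CpG at least 0.6.

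Over all 77 genes the windows held 1439 Zfp322a reads and 870 IgG reads, or 1.55-fold per read (1.42 to 1.68). The median gene had 18 Zfp322a reads and 11 IgG reads, and the median fold was 1.48, with quartiles of 1.25 and 2.04. Over the 15853 protein-coding genes with at least 10 reads in both libraries together, the median fold was 1.40 and the fold of the summed reads 1.44. Most of the 77 promoters were CpG-rich, and over CpG-rich protein-coding genes the median was 1.49 and the summed fold 1.53. The Zfp322a excess at the transcription machinery genes was thus a little above that of an average gene and close to that of an average gene with a CpG-rich promoter.

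In the plot of reads by gene, 76 of the 77 genes had at least 10 reads, the exception being Taf9b, which encodes a paralog of Taf9. Of these 76, 19 (25%) had a fold of at least 2, against 23.8% of all protein-coding genes so counted. A fold of at most 0.5 was found at 0 of the 76, where the background was 3.33%. The interval of the fold lay above 1 at 14 of the 76 (18.4%), against 16.1%. These shares were near the background.

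**Figure D1:**
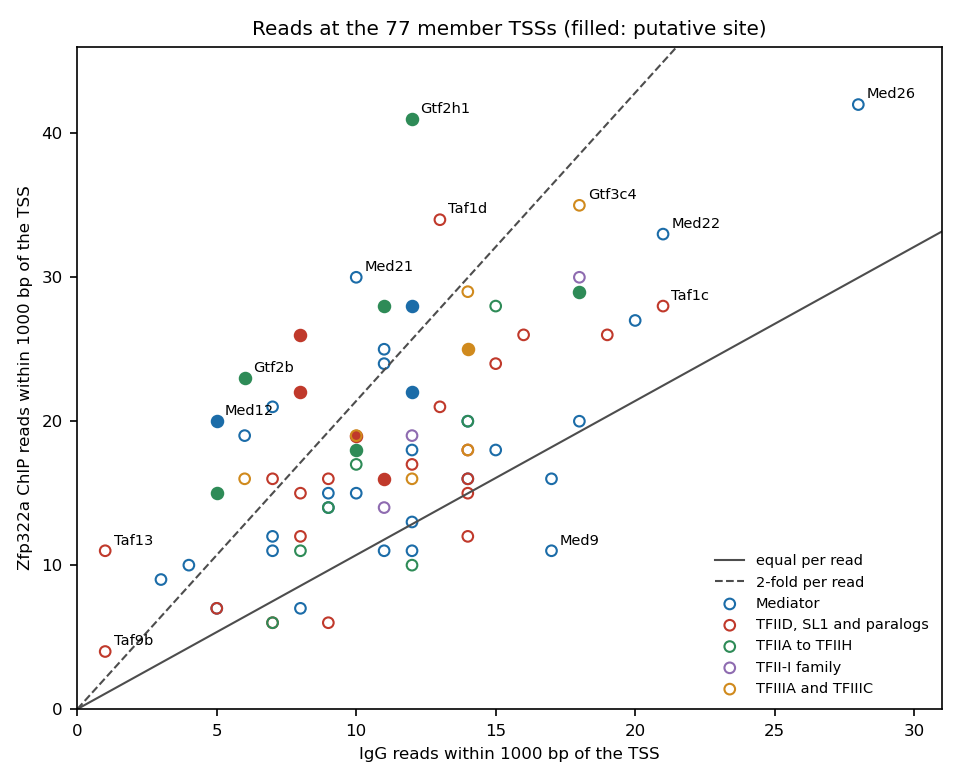
Zfp322a ChIP reads (y axis) against IgG reads (x axis) within 1000 bp of the TSS, 1 point for each of the 77 genes, coloured by complex and filled where the window held a putative site. The solid line marks equal reads per library total and the dashed line a 2-fold excess, and the points reach from Taf9b with 4 and 1 reads to Med26 with 42 and 28.

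A putative site lay in the window of 14 of the 77 genes (18.2%), against 11.2% of all protein-coding genes. With the libraries exchanged, so that IgG stood in for Zfp322a, 0 of the 77 had such a stretch, against 0.409% of all genes. Deposited regions lay at 6 of the 77 (7.79%), against 3.02%. The 14 genes with a putative site were Med8, Med12 and Med29 of Mediator, Taf1, Taf5 and Taf9 of TFIID, the TBP-like gene Tbpl1, and Gtf2b, Gtf2e1, Gtf2e2, Gtf2f1, Gtf2f2, Gtf2h1 and Gtf3c2. Which genes had a site depended on the settings: 8 of the 14 were among the 12 genes found with a minimal height of 11, and 7 among the 13 found with reads extended to 200 bp. Of the genes whose sites are printed above, Taf1 and Med12 lost theirs under both of these settings. Taf1 and Med29 lost theirs with a fold of heights of at least 5.

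CpG-rich promoters made up 63 of the 77 (81.8%) and 42.5% of all protein-coding genes. Within that class a putative site was found at 13 of 63 genes (20.6%), against 20.4% of CpG-rich protein-coding genes. A fold of at least 2 was found at 15 of 62 (24.2%), against 26.2%, and an interval above 1 at 12 of 62 (19.4%), against 20.9%. Deposited regions lay at 6 of 63 (9.52%), against 5.48%. Among genes of like promoter composition, then, the share with a putative site was that of the background, and the share with a deposited region rested on 6 genes. Gtf2h1 was the gene with a site whose promoter did not pass the CpG-rich limits.

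**Figure D2:**
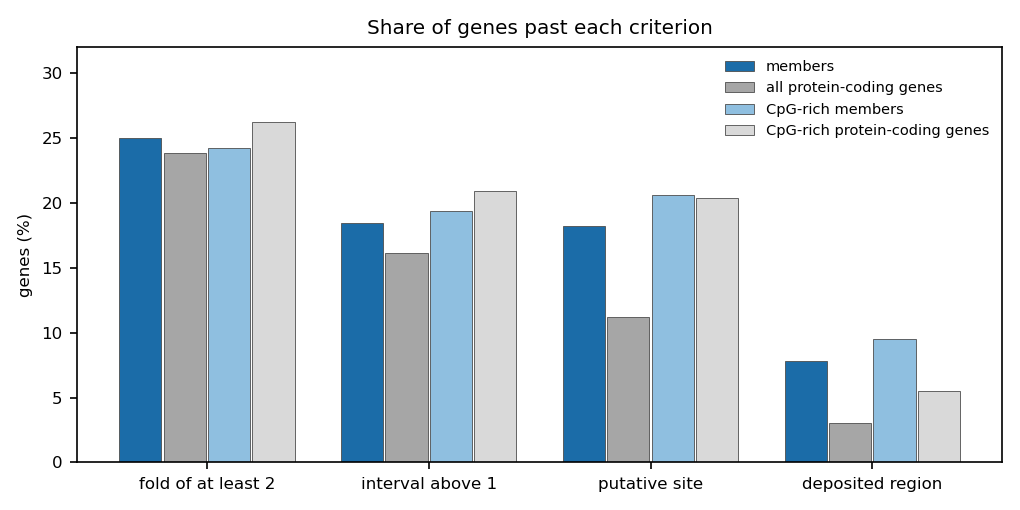
Share of genes (%) past each criterion, for the 77 genes, all protein-coding genes, and the CpG-rich genes of each set; fold and interval are over genes with at least 10 reads. The bars for a putative site stand at 18.2% and 11.2% over all genes and at 20.6% and 20.4% over CpG-rich genes.

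Mediator was represented by 30 genes with 545 Zfp322a and 347 IgG reads, or 1.47-fold (1.28 to 1.68), and 3 of them had a putative site. The head module (7 genes) had a median fold of 1.40, with folds from 0.82 at Med6 to 2.12 at Med17. Med17, a central subunit of the head, had 25 Zfp322a reads against 11 IgG reads, and its interval of 1.01 to 4.78 began just above 1. Scaled by the reads of its chromosome, Med17 had a fold of 1.85, with a lower bound of 0.878. Med8 had 22 against 12 reads (1.71, 0.812 to 3.80), and reads piled up to a height of 14 against 4 over its 5′ UTR, at +140 bp. Med6, with 7 against 8 reads, showed no excess.

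The middle module (9 genes) had a median fold of 1.40 and no putative site. Med9 had the lowest fold of the 76 tested genes, with 11 Zfp322a against 17 IgG reads (0.604, 0.256 to 1.37). Med1, the subunit that contacts nuclear receptors, had 16 against 17 reads (0.879, 0.416 to 1.85). At the other end, Med21 had 30 against 10 reads (2.80, 1.33 to 6.43) and Med4 had 9 against 3 (2.80, 0.699 to 16.1). Med26, which links Mediator to elongation factors, had the most Zfp322a reads of all 77 genes, 42, but also the most IgG reads, 28, so its fold was 1.40 (0.848 to 2.35). In a window from -1000 to +100 bp the median of the middle module was 0.934, below 1. The scaffold gene Med14 had 11 reads in each library (0.934, 0.367 to 2.38).

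In the tail (9 genes, as assigned here) the median fold was 1.60. Med30 had 19 against 6 reads (2.96, 1.14 to 9.05), Med28 had 21 against 7 (2.80, 1.15 to 7.80), and Med29 had 28 against 12 (2.18, 1.07 to 4.71). Only Med29 of these had a putative site, with heights of 12 against 3 reads at -174 bp, and that site lay 69 bp from the TSS of Paf1, a divergently transcribed gene whose product is part of the PAF elongation complex. Reads there cannot be assigned to one of the promoters. Med16, Med15 and Med23, tail subunits that contact activators, stood at 0.856 (11 against 12 reads), 1.01 (13 against 12) and 1.07 (16 against 14), whereas Med25, which also contacts activators, had 24 against 11 reads (2.04, 0.961 to 4.61).

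The kinase module (4 genes) had a median fold of 1.51. Its highest value was at Med12, the subunit that activates the Mediator kinase, with 20 Zfp322a against 5 IgG reads (3.74, 1.36 to 12.7) and a site at -312 bp with heights of 9 against 1. Med12 is X-linked, and the whole X chromosome had 1.32 times as many Zfp322a as IgG reads per library total. Scaled by the reads of the X chromosome, Med12 had a fold of 2.83, with a lower bound of 1.03. Its paralog Med12l had 18 against 15 reads (1.12, 0.534 to 2.39), and Med13 and Med13l had 1.45 and 1.56.

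**Figure D3:**
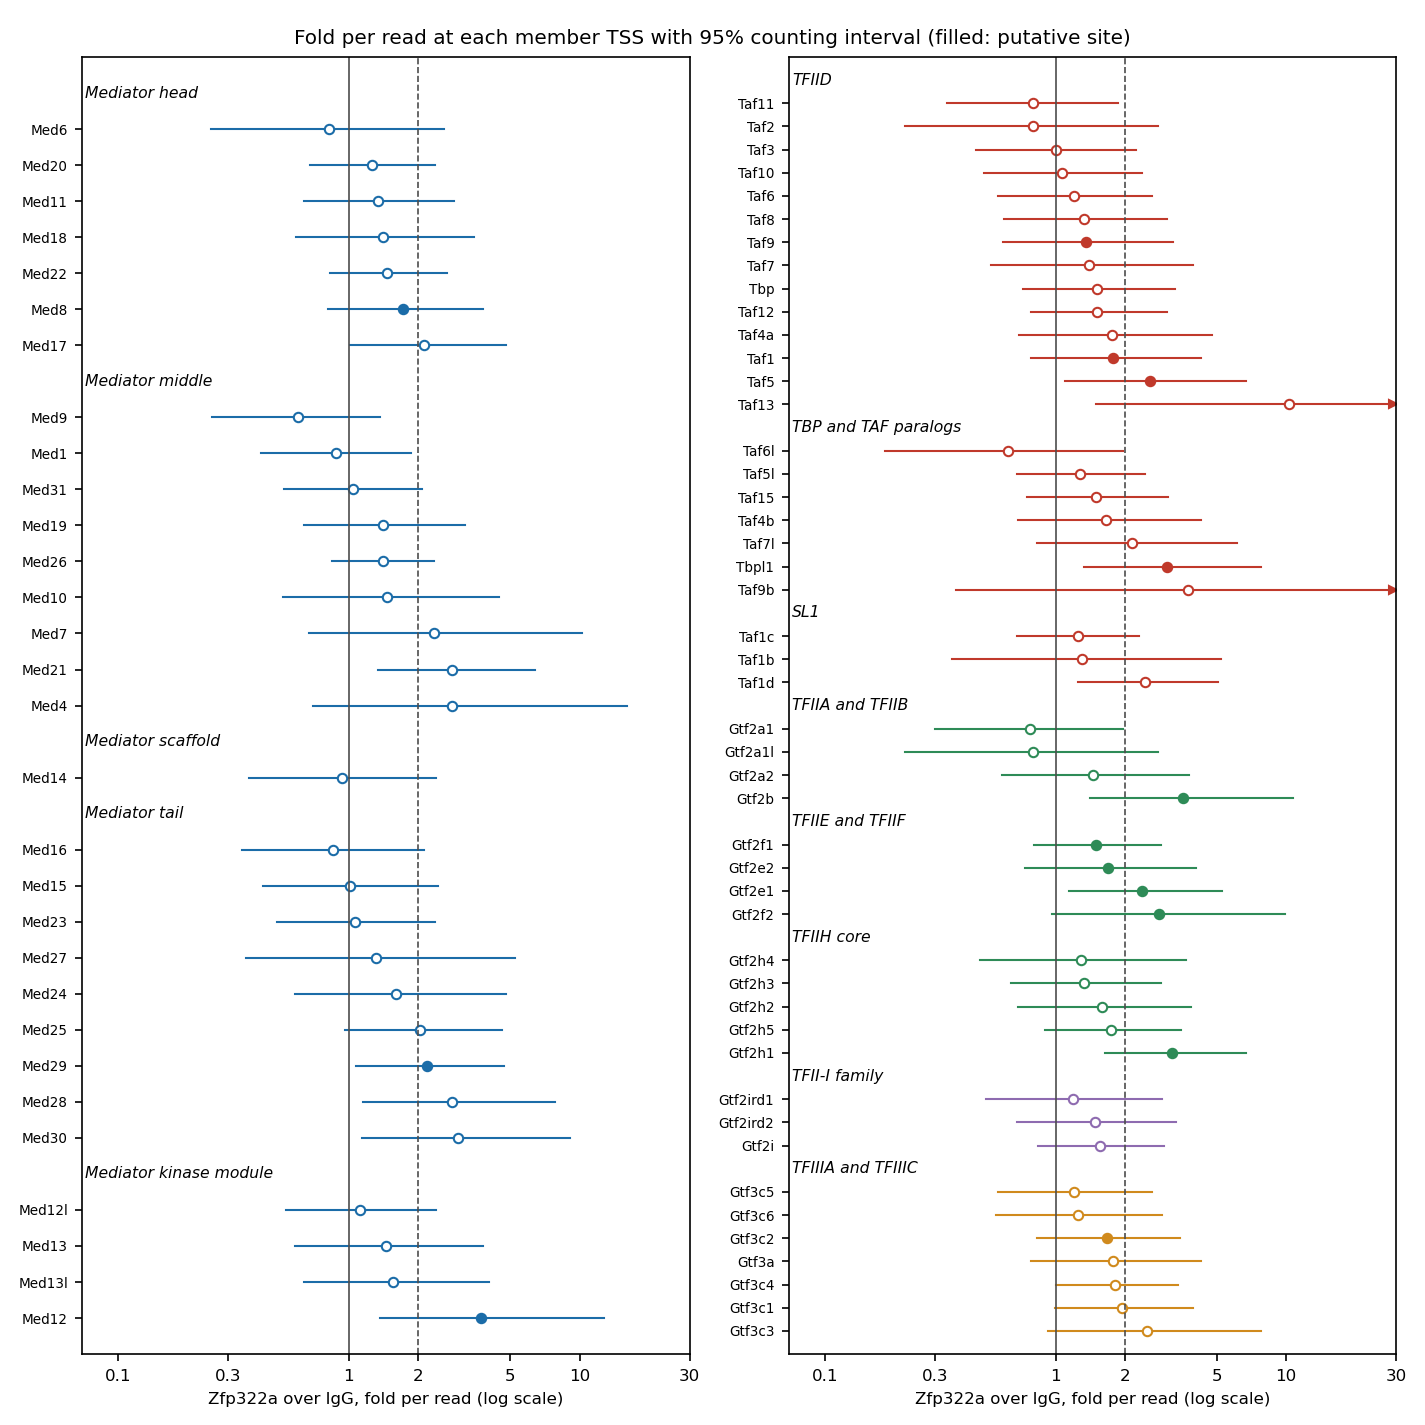
Fold per read of Zfp322a over IgG (x axis, log scale) for each of the 77 genes, grouped by complex, with lines for the 95% counting interval and filled points where the window held a putative site; the vertical lines mark 1 and 2, and arrows mark intervals past the axis. Most intervals cross 1, and the points run from 0.604 at Med9 to 10.3 at Taf13, with all 4 genes of TFIIE and TFIIF above the median of 1.48 and Med14 below it.

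TFIID was represented by 14 genes with 226 Zfp322a and 150 IgG reads and a median fold of 1.38. Tbp itself, which binds the TATA box, had 21 against 13 reads (1.51, 0.721 to 3.28), with no site. Taf13, a histone-fold TAF that pairs with Taf11, had the highest fold of all 77 genes, but from 11 Zfp322a reads and 1 IgG read, so the interval ran from 1.49 to 442. Its partner Taf11 had 12 against 14 reads (0.801, 0.338 to 1.87), and Taf2, which contacts the initiator, had 6 against 7 (0.801).

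Taf5, a WD40-repeat subunit of the TFIID core, had 22 against 8 reads (2.57, 1.10 to 6.67). Its site lay at +694 bp, in an intron, with a height of 12 in the Zfp322a library and 0 in IgG. In a window from -1000 to +100 bp, which leaves that site out, the fold was 0.667. Taf1, the largest subunit, had 19 against 10 reads (1.77, 0.785 to 4.27) and a site at -119 bp with heights of 9 against 2; Taf1 too is X-linked, and its fold was 1.35 when scaled by that chromosome. Taf9 had 16 against 11 reads (1.36, 0.592 to 3.24), and its site, 9 against 3, was at -294 bp and 10 bp from the TSS of the divergent gene Rad17.

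Among the 7 paralogs of TBP and the TAFs (with Taf15, an RNA-binding FET protein, counted here) the median fold was 1.66, and 1 had sites. Tbpl1, a TBP-like factor that acts at TATA-less promoters and in spermatogenesis, had 26 against 8 reads (3.04, 1.33 to 7.76). It was the only one of the 77 with more than 1 site. Heights were 9 against 1 at +125 bp and 10 against 1 at +550 bp, both in its 5′ UTR. The gap between these stretches was little more than the 300 bp within which stretches were joined. With a minimal height of 11, Tbpl1 had no site. Within 500 bp of its TSS the fold was 8.41. That smaller window held no more than the 8 IgG reads of the full one, so this value is imprecise. The lowest value of these paralogs was at Taf6l, a Taf6 paralog of the SAGA complex, with 6 against 9 reads (0.623, 0.182 to 1.96). Taf9b had 4 reads against 1, and its ratio of 3.74 had an interval from 0.370 to 184.

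The SL1 genes had a median fold of 1.31. Taf1d, whose product is a TAF of RNA polymerase I, had 34 against 13 reads (2.44, 1.26 to 5.04), with a deposited region in its window. The highest heights in that window were 18 reads in Zfp322a and 7 in IgG, and no stretch met the criteria for a putative site. Taf1c had 28 against 21 reads (1.25, 0.682 to 2.31).

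TFIIE and TFIIF are encoded by 4 genes, and each of the 4 had a putative site, against 11.2% of all and 20.4% of CpG-rich protein-coding genes, and 2 a deposited region, against 3.02% and 5.48%. TFIIE recruits TFIIH, and TFIIF escorts the polymerase to the promoter. Gtf2e1, for the large TFIIE subunit, had 28 against 11 reads (2.38, 1.15 to 5.29) and a site at +115 bp with heights of 12 against 3. Gtf2f2, for the small TFIIF subunit, had 15 against 5 reads (2.80, 0.968 to 9.86) and a site at +114 bp, 12 against 2. The tops of both sites lay in the 5′ UTR, and both TSS windows held a deposited region. Gtf2e2, for the small TFIIE subunit, had 18 against 10 reads (1.68, 0.736 to 4.08) with heights of 10 against 1 at +22 bp, and Gtf2f1, for the large TFIIF subunit, had 29 against 18 (1.51, 0.808 to 2.88) with heights of 9 against 2 at -176 bp. Summed over the 4 genes, 90 against 44 reads gave a fold of 1.91 (1.32 to 2.81). The median of the 4 was 2.03, 3.25 within 500 bp of the TSS, and 1.92 from -1000 to +100 bp. Within 500 bp, folds were higher in general. There 32.7% of all protein-coding genes had a fold of at least 2, against 23.8% in the main window. The grouping of these genes was made with their values known, and the sites depended on the settings. Gtf2e2 and Gtf2f1 lost theirs with a height of at least 11 and also with 200 bp fragments, and Gtf2e1 and Gtf2f1 with a fold of heights of at least 5.

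The 4 genes of TFIIA and TFIIB had a median fold of 1.13 and 1 site. Gtf2b, which encodes TFIIB, the factor that places the polymerase over the start site, had 23 against 6 reads (3.58, 1.42 to 10.8) and a site at +85 bp with heights of 13 against 4. Gtf2a1, for the large TFIIA subunit, had 10 against 12 reads (0.778, 0.301 to 1.97). Its germ-cell paralog Gtf2a1l had 6 against 7 (0.801, 0.222 to 2.78), and Gtf2a2 had 14 against 9 (1.45). The intervals of Gtf2b and Gtf2a1 overlapped.

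For TFIIH, whose core opens DNA at promoters and in nucleotide excision repair, the 5 genes had a median fold of 1.59 and summed reads of 117 against 59 (1.85, 1.34 to 2.58). Gtf2h1, the p62 subunit gene, accounted for much of that sum, with 41 against 12 reads (3.19, 1.65 to 6.67). Its heights of 22 against 4 were the highest Zfp322a height at a site of the 77 genes. The top of that site lay at -732 bp, inside the divergent gene Hps5 and 58 bp from the Hps5 TSS, so it is nearer to that gene's start than to that of Gtf2h1. The other 4 genes ran from 1.28 at Gtf2h4 to 1.74 at Gtf2h5. The TFII-I family (3 genes on chromosome 5), which encodes signal-responsive factors and not subunits of the preinitiation complex, had folds from 1.19 to 1.56 and no site.

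All 7 genes of TFIIIA and TFIIIC had a fold above 1, from 1.20 at Gtf3c5 to 2.49 at Gtf3c3, with a median of 1.77 and summed reads of 158 against 88 (1.68, 1.28 to 2.20). Folds above 1 were common. The lower quartile was 1.25 over the 77 genes. Over genes with at least 10 reads it was 1.07 for CpG-rich and 0.934 for all protein-coding genes. Gtf3a encodes TFIIIA, which binds the gene of 5S rRNA, and had 19 against 10 reads (1.77, 0.785 to 4.27). Gtf3c1, the large TFIIIC subunit that reads the internal promoter of tRNA genes, had 29 against 14 (1.94, 0.990 to 3.96). Gtf3c2, another TFIIIC subunit, had 25 against 14 (1.67, 0.834 to 3.47) and a site at -255 bp with heights of 14 against 3, and its TSS window held a deposited region. Of the 7, only Gtf3c4 had an interval above 1, by a small margin, with 35 against 18 reads (1.82).

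The 14 genes held 15 putative sites, and no further site was found in the bodies of the 77 genes outside the TSS windows. At each of the 15 the median 5′ end of reverse reads lay downstream of that of forward reads, by 132.5 to 394 bp. The reads were chosen by where a 300 bp fragment would lie. That choice alone tends to place forward ends upstream of reverse ends, so this order cannot tell binding from background. In bins of 100 bp, with reads moved to the fragment middle, the Zfp322a excess over the 77 genes was highest from -300 to -200 bp (105 against 51 reads, 1.92, 1.36 to 2.74) and from 0 to 100 bp (144 against 72, 1.87, 1.40 to 2.51). At the upstream edge of the window, from -1000 to -900 bp, it was 1.07 (0.623 to 1.84). Over all protein-coding genes the bin from 0 to 100 bp had a fold of 1.65 and the edge bin 1.14. IgG reads also gathered at the TSS, with 0.265 RPM per gene from -200 to -100 bp against 0.0938 at the upstream edge.

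**Figure D4:**
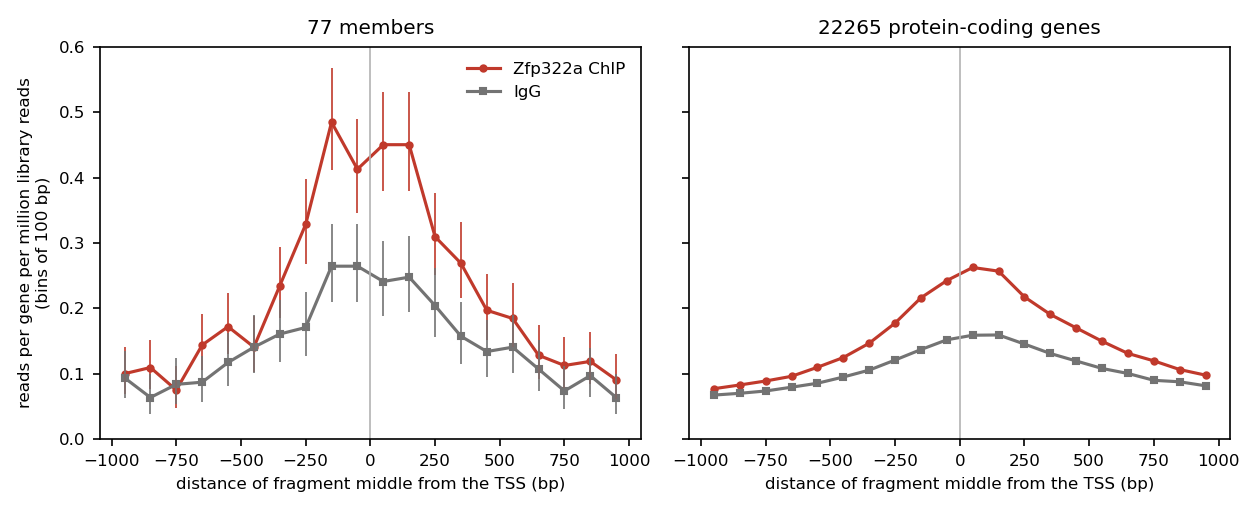
Library-scaled reads per gene (y axis, RPM) in bins of 100 bp by distance of the fragment middle from the TSS (x axis, bp), for the 77 genes (left) and 22265 protein-coding genes (right), with Zfp322a ChIP in red and IgG in grey and error bars on the left for the 95% counting interval of each bin. Over the 77 genes the Zfp322a line reaches 0.485 from -200 to -100 bp where IgG has 0.265, and both libraries fall towards the edges.

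Of the 77 genes, 14 (18.2%) had the TSS of another protein-coding gene within 1000 bp on the opposite strand and pointing away, against 7.24% of all protein-coding genes. At these divergent promoters the median fold was 1.70 and 6 of the 14 genes had a putative site, while of the other 63 genes, with a median of 1.47, 8 had one. Over protein-coding genes with at least 10 reads, divergent promoters had a median of 1.62 and 393 of 1566 had a site, and those not divergent had a median of 1.35 and 2098 of 14287 had one, the same order. Divergent neighbours of genes with a site included Rabl3 at Gtf2e1, 1700104B16Rik at Gtf2e2, Paf1 at Med29, Hps5 at Gtf2h1 and Rad17 at Taf9.

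Sequence matches were searched from -250 to +50 bp of the TSS on both strands, and a match is a description of letters and not of binding. Shares of the 77 are over all 77 genes, of which 63 were CpG-rich, so the CpG-rich shares beside them are not from genes of like composition. The ETS core CCGGAAG was found in 29 of the 77 promoters (37.7%), against 10.8% of all and 19.7% of CpG-rich protein-coding genes. Of the 14 genes with a putative site, 4 had it. ACTACAA, the core bound by Ronin (Thap11) and Znf143, was in 8 promoters (10.4%), against 3.70% of all and 3.72% of CpG-rich ones, and in 0 of the 14. Of these 8, Gtf2h4, Med11 and Med24 were not CpG-rich. The YY1 core ATGGCGG was in 10 (13.0%, against 5.11% and 9.21%).

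Study motif 3, in the letters searched and printed above, was in 5 promoters (6.49%), against 1.28% of all and 2.62% of CpG-rich protein-coding genes. Med12 and Taf5 of these 5 had a putative site, at -312 and +694 bp, whereas the motif lay at -2 and +14 bp, outside both stretches. Med1, with a match at +24 bp, had a fold of 0.879. Study motif 1 was in 13 promoters (16.9%), against 18.1% and 18.9%.

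Common promoter elements were found at 11 genes for TATAAA (14.3%, against 13.5% of all and 4.68% of CpG-rich genes) and at 25 for CCAAT (32.5%, against 37.9% and 36.9%). Of the 11 with TATAAA, Med7, Med16, Med28, Taf6 and Taf7l were not CpG-rich. GGGCGGG was in 34 (44.2%, against 32.4% and 58.3%). TGACGTCA, the cyclic AMP response element, was in 5 (6.49%, against 2.30% and 3.94%), the NRF1 core GCGCATGCG in 3 (3.90%, against 2.11% and 4.27%) and the ZFX-type AGGCCTAG in 1 (1.30%, against 0.898% and 0.878%). Promoter composition differed as well, with a median GC content of 58.1% in the 77 and 55.5% in all protein-coding genes, and a median CpG ratio of 0.846 against 0.539.

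**Figure D5:**
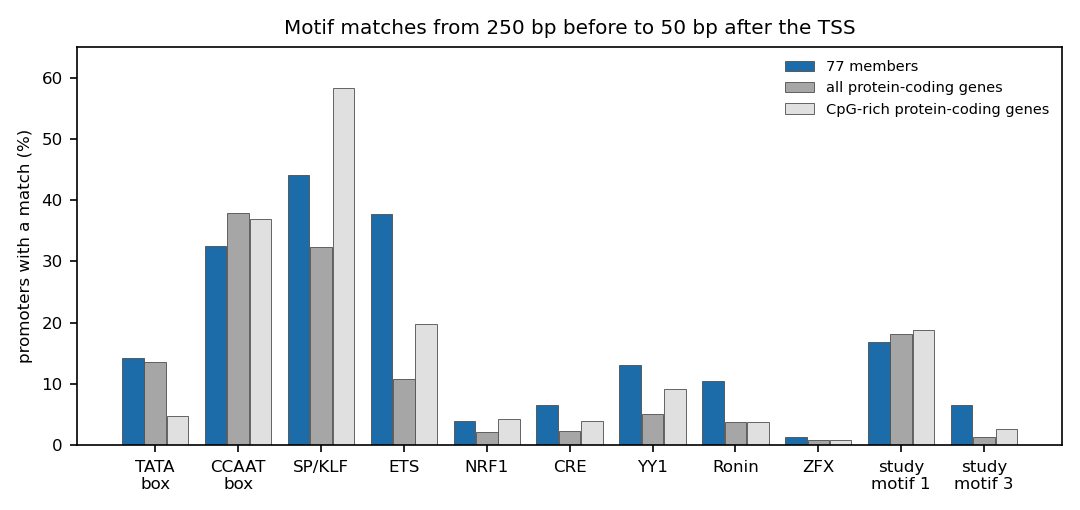
Share of promoters (%) with at least 1 match from 250 bp before to 50 bp after the TSS on either strand, for the 77 genes, all protein-coding genes and CpG-rich protein-coding genes. The ETS core stands at 37.7% of the 77 genes, 10.8% of all and 19.7% of CpG-rich genes, and study motif 1 at 16.9%, 18.1% and 18.9%.

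Genes whose products work with these complexes but whose symbols fall outside the rule were looked up from a list of 39, of which 37 were found. Of these 37, 11 had a fold of at least 2, 9 had a putative site and 4 a deposited region, where the shares over all protein-coding genes were 23.8%, 11.2% and 3.02% and those over CpG-rich ones 26.2%, 20.4% and 5.48%. The median fold was 1.58. The 12 genes of RNA polymerase II ran from 0.467 to 3.43, and the 11 of SAGA had a median of 1.19. Those with a site were Polr2a (33 against 9 reads), Polr2h (31 against 15) and Polr2j (31 against 10) of RNA polymerase II, Brf1 (39 against 15), the TFIIB-related factor of RNA polymerase III, Ccnh (17 against 6) of the TFIIH kinase, Cdk19 (24 against 14) of the Mediator kinase, and Kat2a (28 against 22), Tada2b (23 against 7) and Tada3 (39 against 14) of SAGA. Polr2a encodes the catalytic subunit of the polymerase, and its fold was 3.43 (1.60 to 8.14).

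Whole chromosomes differed in their Zfp322a reads over IgG reads per library total, from 0.507 on Y to 1.32 on X, with 0.760 on chromosome 8. The 5 X-linked genes (Med12, Med14, Taf1, Taf7l and Taf9b) had a median fold of 2.14, the 4 on chromosome 8 (Gtf2e2, Med26, Taf1c and Taf5l) 1.34, and the other 68 had 1.47. Scaled by chromosome, Taf7l moved from 2.14 (16 against 7 reads) to 1.62, Gtf2e2 from 1.68 to 2.21 and Med26 from 1.40 to 1.84, and 17 of 76 genes had a fold of at least 2, against 22.7% of all. The source of the chromosome differences was not tested. Reads of lower mapping quality in the 77 windows numbered 48 in Zfp322a and 40 in IgG (1.12, 0.720 to 1.75).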

How the data were processed

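The authors mapped 36-base reads of 1 Zfp322a ChIP and 1 IgG library to mm9, and the files they deposited list every mapped read and its mapping quality score. The submitters' processing notes name BWA, CASAVA 1.4 and Partek 6.6. Whether duplicates were removed is not stated in the sources used here, and no pair of reads shared 5′ position and strand. The authors also deposited the reads inside numbered regions of their peak detection, which form 754 distinct Zfp322a intervals. The paper reports many more putative binding sites than that, so a gene without a deposited region may still be in its list.

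Reads scoring 25 or more were counted at the TSS used by most protein-coding transcripts of each gene (GENCODE vM1), records of 1 symbol that overlap being pooled. Library totals were 4151151 and 3877802 such reads, and the main folds per read used no other normalization. Heights at putative sites, also with the libraries exchanged, were compared as raw reads without scaling. With heights scaled by library totals, 13 of 77 genes had a site (16.9%), against 9.09% of all protein-coding genes, and Taf9 lost its site. Fold intervals are exact conditional binomial (Clopper-Pearson) intervals. No p-value was computed, because each antibody has 1 library. For putative sites (3875 in the genome, 384 with the libraries exchanged), reads were extended to 300 bp, a stretch was a run of bases with a height of at least 9, an IgG height of 0 was taken as 1, and stretches at most 300 bp apart were joined. The Mann-Whitney U filter of the study's methods was not applied.

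Genes named with values were those with a putative site, the 10 highest and 8 lowest folds among genes with at least 10 reads, and genes that define a complex. Others, such as Taf1d, Taf9b, Med26, Gtf3c4, Taf7l and the remaining extremes of a group, were chosen after their values were seen. Members, lists of complexes and motifs were chosen with earlier results of these data known. Alternatives changed the mapping quality limit, window, read position, scaling, TSS, read minimum, fold, site criteria and motif window. Counting and site detection were tested on simulated data. Scripts used samtools 1.23.1 and, under Python 3.11.15, pysam 0.24.0, scipy 1.17.1, pandas 2.3.3, matplotlib 3.10.9 and numpy 2.4.6. The microarray and reporter experiments of the study were not analysed here.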

Additional observations from a re-analysis of the deposited data

How the results depend on the processing

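No paired analysis was possible because each antibody has 1 library. Of 128 summaries under an alternative, 10 moved. A median fold was called moved where its shift reached a limit set by the width of its pooled interval. A count was called so where it changed by more than a fixed ratio. These limits were loose for small groups. Med14, the only scaffold gene, was not called moved from 0.934 to 0.623 or 1.40. Nor was the site count with 200 bp fragments, where 7 of the 14 genes kept a site. The tally thus says little about stability. In a window from -1000 to +100 bp, the median fold was 0.934 for the Mediator middle module and 2.24 for the tail, and Taf5 turned to 0.667. Within 500 bp of the TSS, medians were 2.27 for the tail, 3.25 for TFIIE and TFIIF, and 2.18 for the TFII-I family. A fold of at least 3 was found at 5 genes (6.58%, against 7.46% of all protein-coding genes). A fold of heights of at least 5 left sites at 6 genes (7.79%, against 4.36%). From -500 to +100 bp, TATAAA matched 18 of 77 promoters, CCAAT 43 and study motif 1 21, against 25.9%, 57.4% and 29.7% of all protein-coding genes, so that the share with TATAAA, above that of all genes in the shorter window, was below it. Of 231 values of 33 named genes under 7 alternatives, 228 stayed within the interval of the reported value. Besides Taf5, those outside were Taf6l (0.156 from -1000 to +100 bp) and Tbpl1 (8.41 within 500 bp). The intervals of single genes are wide and the alternatives count largely the same reads, so the 228 say little about stability. Within 500 bp, 25 of 69 genes had a fold of at least 2 (36.2%, against 32.7%). With reads over 10 kb from a TSS as the scale, the ratio of the libraries was 1.01 in place of 1.07. Depth limits single genes: Med25, with 24 against 11 reads, had a fold of 2.04 whose interval began at 0.961.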
